A study of Mus musculus with 10 samples.

Results

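Genes of the progenitor and double-negative stages of early thymocytes were examined in whole thymus of newborn mice that lacked 1 or both copies of Usp7 in their blood-forming cells. Usp7, also called Hausp, encodes a deubiquitinase. The 9 genes were Kit, Il2ra, Cd44, Cpa3, Bcl11a, Mef2c, Spi1, Hhex and Gata2, found by Ensembl identifier among the 35375 features of the deposited count table. Most were chosen by their known place in the progenitor and double-negative stages, after earlier results of these data had been seen. Cpa3 was selected on its measured counts, because it fell strongly from wild-type to homozygous knockout thymus. All comparisons of Cpa3 rest on libraries that chose it, so its values are given as description, with no test, and counts of called genes cover the other 8.

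All mice were C57BL/6J and the tissue was taken 3 days after birth. The 10 libraries, each labelled with its own animal number, were 3 with a homozygous Usp7 knockout (homozygous KO), 3 with a heterozygous knockout (heterozygous KO) and 4 wild type. The series describes 2 of the 4 wild types as carrying cre and 2 as not, without saying which, so whether cre differs between the groups could not be examined here. Titles of wild type 1 and 2 carry the word wt 2 times and those of wild type 3 and 4 carry it 1 time, and the count columns of the latter pair also carry the word het. All 4 were kept in the group their titles name, and calls were repeated with each pair alone. The Cre driver is not given in the sources used here. Libraries held 39833850 to 122380785 counts, and 3 counts corresponded to between 0.0260 and 0.0737 CPM. CPM, the usual count scaled to a fixed library size, was computed here from library totals adjusted by the trimmed mean of M-values (TMM). Usp7 itself was read at 303, 422 and 408 CPM in homozygous KO, 472, 516 and 516 CPM in heterozygous KO and 676, 670, 594 and 589 CPM in wild type, so the 3 groups did not overlap. Many Usp7 reads thus remained in homozygous KO, and counts per gene do not show how complete the deletion was. Xist, transcribed from the inactive X of females, exceeded 100 CPM in 1 of 3 homozygous KO, 0 of 3 heterozygous KO and 3 of 4 wild-type libraries, so sex was not balanced. The thymocyte identity of the tissue was clear in all libraries: summed double-positive thymocyte markers, such as Cd4, Cd8a and Rag1, read 7345 to 7504 CPM in homozygous KO, 8864 to 9463 CPM in heterozygous KO and 8925 to 10308 CPM in wild type.

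T cells arise in the thymus from progenitors that arrive by blood and are still able to form other blood lineages. These cells carry the stem cell factor receptor Kit and the hyaluronan receptor Cd44 on their surface, gain Il2ra (the CD25 chain of the interleukin-2 receptor) as they move along the T lineage, and then lose Kit and Cd44. Transcription factors inherited from earlier stages, among them Spi1 (PU.1), Bcl11a, Mef2c, Hhex and Gata2, are shut down as Notch signals commit the cells. Several of the 9 genes are also used by other cells of a thymus: Spi1 by myeloid cells, Bcl11a and Mef2c by B cells and dendritic cells, Il2ra by regulatory T cells, Cpa3 and Gata2 by mast cells.

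Upstream sequence was taken from RefSeq (GRCm38.p6), which gave windows for 8 of the 9 genes, all except Spi1. The windows of the 3 genes with the lowest homozygous KO share of their wild-type level, and that of Cd44, which holds the most motif matches, are shown, the former because these members bear the largest differences below. Each is the 250 bases before the annotated start, read 5′ to 3′ on the gene's strand. Capitals mark matches to 3 kinds of motif, searched on both strands. The GATA motif was taken as AGATAA, or with its first letter changed as TGATAA, or with its last letter changed as AGATAG, or with both of these changed as TGATAG. The ETS core, of the kind that PU.1 binds, was taken as AGGAAG, or shifted by a base as GAGGAA, and the E-box as CAGCTG or, with a changed middle, as CAGGTG. On the other strand the ETS cores read CTTCCT and, for the shifted form, TTCCTC. The windows are chr3:20242182-20242431 on the minus strand for Cpa3, chr11:24080445-24080694 on the plus strand for Bcl11a, chr13:83503784-83504033 on the plus strand for Mef2c and chr2:102901666-102901915 on the minus strand for Cd44.
Cpa3: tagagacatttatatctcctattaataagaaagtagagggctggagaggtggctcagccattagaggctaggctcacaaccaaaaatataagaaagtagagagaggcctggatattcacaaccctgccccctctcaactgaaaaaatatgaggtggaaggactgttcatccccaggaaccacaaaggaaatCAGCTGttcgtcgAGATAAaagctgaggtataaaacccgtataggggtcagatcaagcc
Bcl11a: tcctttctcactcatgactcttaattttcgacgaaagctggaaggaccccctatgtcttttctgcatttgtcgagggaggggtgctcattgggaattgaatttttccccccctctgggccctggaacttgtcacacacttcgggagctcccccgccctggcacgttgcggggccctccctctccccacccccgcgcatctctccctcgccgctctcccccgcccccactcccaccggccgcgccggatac
Mef2c: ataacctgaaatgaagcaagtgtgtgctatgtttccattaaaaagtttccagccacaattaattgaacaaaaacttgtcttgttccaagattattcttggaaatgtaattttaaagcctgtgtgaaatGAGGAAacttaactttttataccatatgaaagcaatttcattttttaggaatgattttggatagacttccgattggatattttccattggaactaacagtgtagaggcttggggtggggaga
Cd44: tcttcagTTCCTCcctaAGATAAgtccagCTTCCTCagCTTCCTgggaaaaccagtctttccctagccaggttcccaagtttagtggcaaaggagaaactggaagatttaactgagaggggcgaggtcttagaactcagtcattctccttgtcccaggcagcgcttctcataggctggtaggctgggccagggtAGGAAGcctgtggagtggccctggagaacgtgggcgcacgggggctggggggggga

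The Cpa3 window holds a GATA match that begins 46 bases before the start and an E-box that begins 59 bases before it. No match of any of the 3 kinds was present in the Bcl11a window or in either Gata2 window. The Mef2c window shown holds 1 ETS core, while the Cd44 window holds 5, of which one pair overlaps, and 1 GATA match. The Il2ra and Hhex windows hold 1 ETS core each and the Kit windows a pair that overlaps. Among 32851 RefSeq windows of the same length, 26.5% hold a GATA match, 39.2% an ETS core and 27.7% an E-box, so none of these matches is rare. A match in these letters is a description and does not show binding.

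Of the 8 members open to a test, 6 were lower in homozygous KO than in wild type by edgeR at an adjusted p under 0.05, and none was higher. Across all 19511 features tested, 25.8% were called in this comparison and 13.2% were called lower, against 75% of the 8 members. The median log2 fold change of the 8 was -0.96, beside -0.01 over all features tested. The members were chosen with earlier results of these data known. Shares and medians set beside all features, here and below, thus describe the set and do not test it. The 3 homozygous KO libraries lay below all 4 wild types for the same 6 members (Kit, Cd44, Bcl11a, Mef2c, Spi1 and Hhex), a separation in that direction shown by 16.7% of all features. With wild type 1 and 2 as the only controls 4 of the 8 were called, and with wild type 3 and 4 as the only controls 5 were. In whole thymus, fewer cells of a type and less RNA per cell cannot be told apart.

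**Figure D1:**
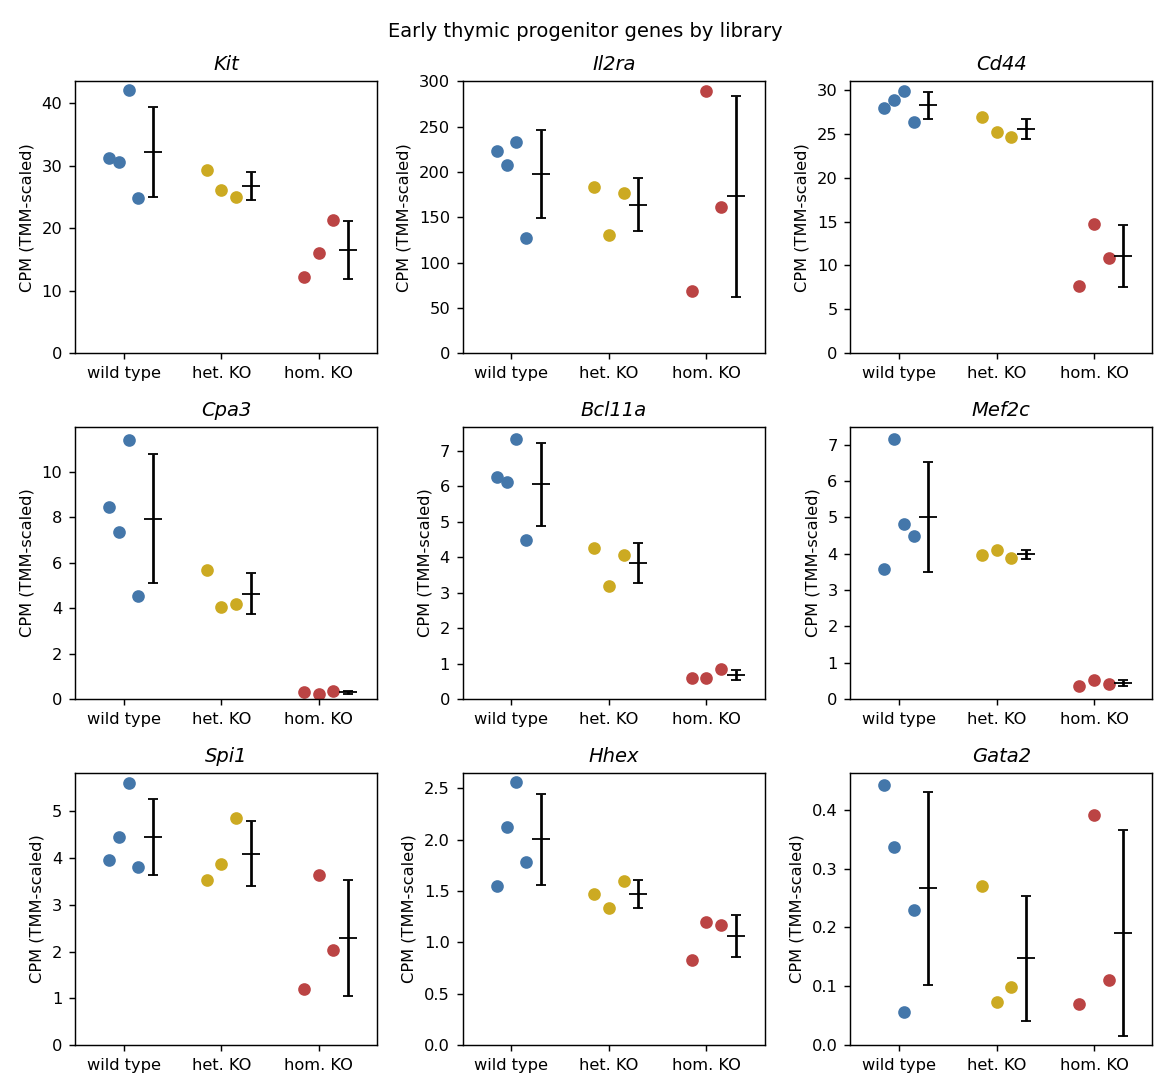
CPM (vertical axes, from 0) of the 9 genes in each library (points) of the wild-type, heterozygous KO and homozygous KO groups, with the group mean and SD as bars. Bcl11a, Mef2c and Cpa3 were below 1 CPM in every homozygous KO library and above 3 CPM in every other library, whereas Il2ra and Gata2 overlapped between groups.

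Kit, the receptor tyrosine kinase that defines early progenitors, read 12.1, 16.0 and 21.3 CPM in homozygous KO, 29.3, 26.1 and 25.0 CPM in heterozygous KO and 31.2, 30.5, 42.0 and 24.8 CPM in wild type. Every homozygous KO library was below every other library, while heterozygous KO and wild type overlapped. Homozygous KO averaged 51.3% of wild type (log2 fold change -0.96, SE 0.20, adjusted p = 0.00474, n = 3 and 4, edgeR). Against heterozygous KO the log2 fold change was -0.70 (SE 0.21, adjusted p = 0.0400), a call that was lost in 7 of 18 alternatives, with adjusted p up to 0.115: without homozygous KO replicate 1 or 2, without any heterozygous KO replicate and without wild type replicate 1 or 2.

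Cd44, the hyaluronan receptor, was the most even of the members within wild type. Its 4 wild types read 27.9, 28.9, 29.9 and 26.3 CPM and its heterozygous KO libraries 26.8, 25.1 and 24.6 CPM, against 7.61, 14.7 and 10.8 CPM in homozygous KO. The homozygous KO libraries did not reach the lowest of the others, although they varied 1.93-fold among themselves. Homozygous KO held 39.1% of the wild-type level (log2 fold change -1.35, SE 0.17, adjusted p = 2.41e-04, edgeR) and 43.3% of the heterozygous KO level (-1.21, SE 0.18, adjusted p = 9.31e-04).

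Il2ra behaved unlike the other surface receptors. It read 68.5, 289 and 162 CPM in homozygous KO, 184, 130 and 177 CPM in heterozygous KO and 223, 208, 233 and 127 CPM in wild type. The homozygous KO group held both the lowest and the highest library of the series, a 4.22-fold range. No difference was called (homozygous KO against wild type log2 fold change -0.19, SE 0.37, 95% interval -1.01 to 0.63, adjusted p = 0.742, edgeR), and the interval does not exclude a 2-fold fall. Without homozygous KO replicate 1 the estimate became 0.19.

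Cpa3, a carboxypeptidase stored in mast cell granules and also transcribed in early hematopoietic progenitors, was the member picked for its fall. It was counted 35, 24 and 33 times in homozygous KO, which is 0.304, 0.235 and 0.366 CPM, above the level of 3 counts in each library. Heterozygous KO libraries read 5.68, 4.06 and 4.17 CPM and wild types 8.45, 7.37, 11.4 and 4.53 CPM. All 3 homozygous KO libraries were thus more than 10-fold below the lowest of the others, at 3.79% of the wild-type mean and 6.50% of the heterozygous KO mean (fitted log2 fold changes -4.72 and -3.94, given with no test).

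The level of Cpa3 was set beside markers of mast cells and basophils. Of 12 such genes only Slc18a2, Hdc and Il1rl1 passed the filter on low counts. The proteases and receptors that define mature mast cells or basophils were at or near 0 in all groups: Mrgprb1 had no read, and the highest count in any library was 1 for Fcer1a, 5 for Tpsb2, 6 for Tpsab1, 8 for Cma1, 9 for Ms4a2, 12 for Mcpt4, 17 for Prss34 and 28 for Mcpt8. Within these few reads, Cma1 had 1, 1 and 0 in homozygous KO against 2, 6, 8 and 2 in wild type, without overlap. Ms4a2 had 0 in each homozygous KO library and 0, 5, 1 and 9 in wild type. Mean CPM in homozygous KO and wild type was 0.0351 and 0.0338 for Mcpt4, 0.0420 and 0.127 for Mcpt8 and 0.0123 and 0.0634 for Prss34. For Tpsb2 it was 0.0159 and 0.0413, for Tpsab1 0 and 0.0169 and for Fcer1a 0.00326 and 0. All of these, and Ms4a2, overlapped between the groups. Slc18a2, the vesicular monoamine transporter, read 8.31 ± 0.986 CPM in homozygous KO (SD, n = 3) and 10.6 ± 2.79 CPM in wild type (n = 4; adjusted p = 0.258, edgeR), although it passed the threshold without wild type replicate 3 (log2 fold change -0.51, adjusted p = 0.0423). Hdc, which makes histamine, read 2.12 ± 0.774 and 2.30 ± 0.342 CPM (adjusted p = 0.758). Il1rl1 read 0.220 ± 0.209 and 0.428 ± 0.111 CPM (adjusted p = 0.430, edgeR). The summed list ranged over 8.96 to 12.0 CPM in homozygous KO, 11.8 to 15.6 CPM in heterozygous KO and 9.75 to 16.5 CPM in wild type, so the summed levels, which Slc18a2 and Hdc dominate, overlapped. The part of mast cells and basophils in the level of Cpa3 was not tested.

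Among the transcription factors, Mef2c and Bcl11a had the largest differences. Mef2c, a MADS-box factor of lymphoid and myeloid progenitors and of B cells, read 0.364, 0.528 and 0.421 CPM in homozygous KO, against 3.96, 4.10 and 3.88 CPM in heterozygous KO and 3.58, 7.15, 4.82 and 4.47 CPM in wild type. Homozygous KO kept 8.75% of the wild-type level (log2 fold change -3.51, SE 0.26, adjusted p = 6.45e-06, edgeR) and 11.0% of the heterozygous KO level (-3.18, SE 0.26, adjusted p = 2.03e-05). Heterozygous KO and wild type overlapped.

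Bcl11a, a zinc-finger repressor needed for lymphoid progenitors, was the only member whose 3 groups were fully ordered. It read 0.599, 0.597 and 0.842 CPM in homozygous KO, 4.25, 3.18 and 4.07 CPM in heterozygous KO and 6.26, 6.11, 7.34 and 4.50 CPM in wild type. The homozygous KO level was 11.2% of wild type (log2 fold change -3.16, SE 0.23, adjusted p = 5.36e-06, edgeR) and 17.7% of heterozygous KO (-2.50, SE 0.23, adjusted p = 3.82e-05). Exons of Bcl11a and of 4930538E20Rik on the opposite strand overlap, and whether the counting used strand is not given in the sources used here, so reads of the pair may be mixed.

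Spi1, which encodes PU.1, read 1.21, 3.65 and 2.04 CPM in homozygous KO, 3.54, 3.88 and 4.87 CPM in heterozygous KO and 3.95, 4.45, 5.60 and 3.81 CPM in wild type. Homozygous KO replicate 2 lay close to the lowest wild type and inside the heterozygous KO range. The mean was 51.6% of wild type (log2 fold change -0.96, SE 0.32, adjusted p = 0.0458, edgeR). This call was lost in 13 of 20 alternatives, with adjusted p up to 0.148: it failed without any single library other than homozygous KO replicate 2, with Xist as a covariate (0.0913), with only the 2 groups in the fit (0.0748) and with either pair of wild types. Against heterozygous KO the difference missed the threshold (-0.83, SE 0.33, adjusted p = 0.118), except without homozygous KO replicate 2 (-1.34, adjusted p = 0.00902).

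Hhex, a homeobox factor of blood progenitors, read 0.824, 1.19 and 1.16 CPM in homozygous KO, 1.47, 1.33 and 1.60 CPM in heterozygous KO and 1.55, 2.12, 2.57 and 1.78 CPM in wild type. Homozygous KO was below both other groups, which overlapped at their edges. Its level was 53.0% of wild type (log2 fold change -0.92, SE 0.23, adjusted p = 0.0128, edgeR), lost only against the pair of wild types whose titles carry 2 wt words (adjusted p = 0.0682). The difference from heterozygous KO was not called (-0.47, SE 0.24, adjusted p = 0.230).

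Gata2, a GATA factor of stem cells and mast cells, was close to the limit of counting. It was read 8, 40 and 10 times in homozygous KO, 27, 7 and 9 times in heterozygous KO and 18, 14, 5 and 19 times in wild type. These are 0.0694, 0.391 and 0.111 CPM, 0.270, 0.0733 and 0.0980 CPM, and 0.442, 0.337, 0.0563 and 0.230 CPM, so the groups overlapped throughout. The 95% interval of the homozygous KO against wild type log2 fold change ran from -2.08 to 1.26 (adjusted p = 0.727, edgeR), so differences within that range were not excluded.

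**Figure D2:**
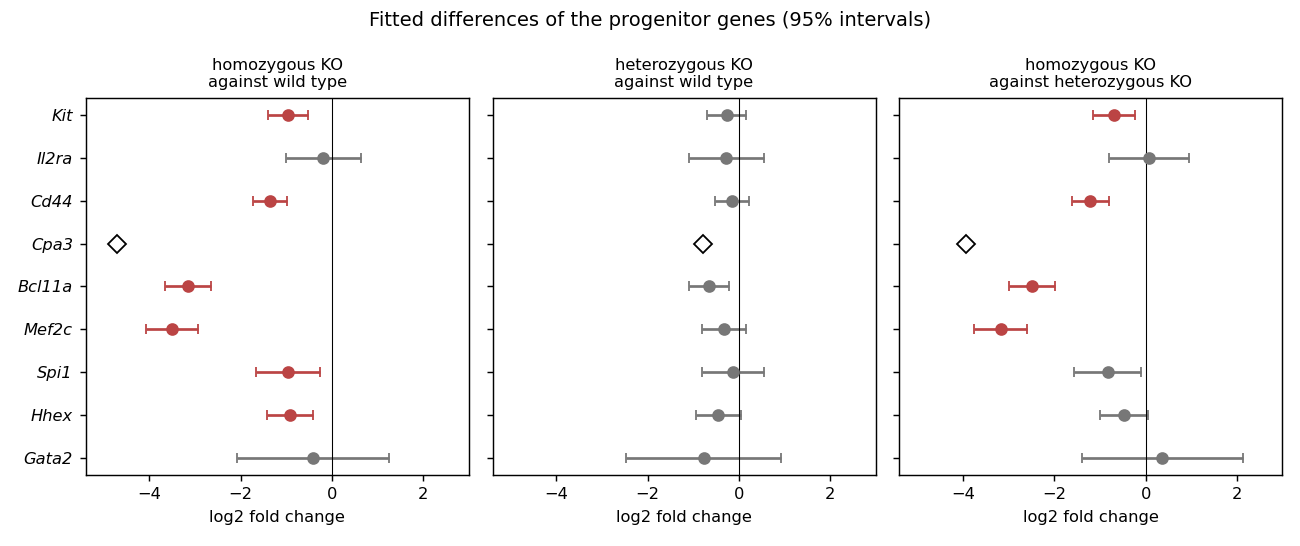
Fitted log2 fold changes (horizontal axes) of the 9 genes in the 3 comparisons with 95% intervals as bars; red marks an adjusted p under 0.05, grey a larger one, and open diamonds the Cpa3 values, given without test or interval. In homozygous KO against wild type 6 genes are red, from -0.92 for Hhex to -3.51 for Mef2c, and in heterozygous KO against wild type no gene is.

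In heterozygous KO against wild type, none of the 8 members other than Cpa3 was called by edgeR, where 0.0154% of all features were. Of the 8, 1 (Bcl11a) had an unadjusted p under 0.05, beside 7.28% of all features. The 95% intervals were narrowest for Cd44 (-0.51 to 0.22) and widest for Gata2 (-2.48 to 0.94). The absence of calls therefore does not show that differences were small. DESeq2 called none of the 8 either. Their estimates were all negative, with a median log2 fold change of -0.30 beside -0.01 over all features. Bcl11a stood at 63.4% of wild type with no overlap (log2 fold change -0.66, SE 0.20, unadjusted p = 0.00741, adjusted p = 0.597, edgeR), a separation in this direction shown by 4.37% of features, and an exact two-sided permutation of the libraries gave p = 0.0571. Cpa3 stood at 58.4% of wild type, with overlap (fitted log2 fold change -0.78, given with no test).

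In homozygous KO against heterozygous KO, 4 of the 8 members other than Cpa3 (Kit, Cd44, Bcl11a and Mef2c) were called lower and none higher, which is 50%, beside 17.1% called and 9.5% called lower over all features. Hhex did not overlap either, so that 5 of the 8 were separated in this direction, as were 16.8% of all features. This comparison shares its homozygous KO libraries with the one against wild type, so its calls are not independent of those above. The smallest p that exact permutation can give is 0.1 for 3 against 3 libraries and, for 3 against 4, 0.0286. On log2 CPM each of the 6 members called against wild type reached 0.0286, whereas on linear CPM Kit and Hhex gave 0.0571.

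The animal numbers in the labels fall into 44 to 51 (1 homozygous KO, 1 heterozygous KO and 3 wild types) and 56 to 63 (2, 2 and 1). Whether these stand for litters or dates is not stated. Within 44 to 51 and 56 to 63, the mean log2 CPM differences of homozygous KO from wild type were -1.50 and -0.42 for Kit, -1.92 and -1.06 for Cd44, -3.44 and -2.66 for Bcl11a and -3.76 and -3.23 for Mef2c. They were -1.94 and -0.48 for Spi1, -1.30 and -0.59 for Hhex and, as description, -4.86 and -3.93 for Cpa3. Each of these 7 genes was thus lower in both sets of animals, with the smaller difference in 56 to 63. Il2ra was not: its difference was -1.69 in 44 to 51 and 0.77 in 56 to 63. All genes were read in the same libraries, with 1 homozygous KO in 44 to 51 and 1 wild type in 56 to 63. Their differences between the sets are therefore not independent of each other.

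Levels were also ordered within each group as CPM per kilobase of merged exons (GENCODE vM21, GRCm38). In wild type Il2ra was the most abundant at 34.6 ± 8.49 CPM per kilobase (SD, n = 4), above all values of the others. Cpa3 (5.24 ± 1.88), Cd44 (4.17 ± 0.225) and Kit (3.61 ± 0.808) followed with overlapping ranges, then Spi1 (1.65 ± 0.302) clear of its neighbours. Bcl11a (0.459), Hhex (0.396) and Mef2c (0.319) overlapped, and Gata2 (0.0493) was lowest. In homozygous KO the order was Il2ra (30.3 ± 19.4, n = 3), Kit (1.85), Cd44 (1.63), Spi1 (0.853), Hhex (0.210), Cpa3 (0.199), Bcl11a (0.0516), Gata2 (0.0353) and Mef2c (0.0279). Cpa3 thus moved from the range of Cd44 and Kit to that of Hhex, and Bcl11a and Mef2c to the range of Gata2.

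Within groups the members did not all vary together. After subtraction of group means, over the 10 libraries, log2 CPM of Il2ra followed that of Cd44 (r = 0.94) and Spi1 (r = 0.88), and Cd44 followed Spi1 (r = 0.90). These r values rest largely on the homozygous KO libraries. Cd44 varied 1.93-fold there, but 1.09-fold in heterozygous KO and 1.14-fold in wild type. Il2ra and Spi1 also varied most in homozygous KO (4.22-fold and 3.02-fold). Kit, Cpa3 and Bcl11a also varied together, with r = 0.88 between Cpa3 and Bcl11a, 0.83 between Kit and Bcl11a and 0.74 between Kit and Cpa3. The 2 sets were not separate, since across them r ranged from -0.04 between Cpa3 and Spi1 and -0.01 between Cpa3 and Cd44 to 0.51 between Kit and Cd44 and 0.61 between Kit and Il2ra. Cpa3 and Mef2c, both strongly reduced in homozygous KO, had r = -0.14. These are descriptions of 10 libraries that share depth and dissection, with no test.

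**Figure D3:**
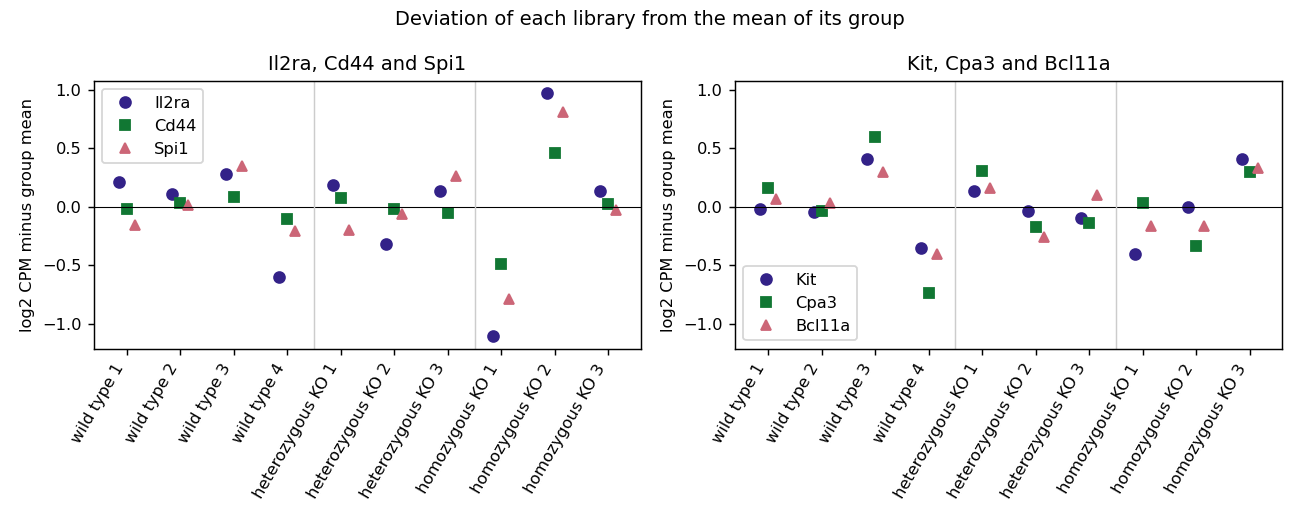
Deviation of log2 CPM from the group mean (vertical axis) in each library (horizontal axis) for Il2ra, Cd44 and Spi1 (left) and Kit, Cpa3 and Bcl11a (right). On the left all 3 genes are lowest in homozygous KO 1 and highest in homozygous KO 2 of that group; on the right all 3 are lowest in wild type 4 and highest in wild type 3 of the wild types.

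The features whose log2 CPM over all 10 libraries was most like each member were sought among 11691 named genes with a mean of at least 0 on the log2 CPM scale. Cpa3 and Bcl11a were each other's nearest gene (Pearson r = 0.995), followed by Myo7a for Cpa3 (0.991) and Pdia5 for Bcl11a (0.992). Mef2c was nearest to Ccl5 (0.994) and Unc93b1 (0.993), and Cd44 to Sorl1 (0.991) and Abcc1 (0.987). For Kit the nearest were Mmp11 (0.974) and Ago1 (0.966), for Spi1 Cacnb3 (0.977) and Tgfbi (0.971), and for Hhex Wbp1l (0.961) and Prkcq (0.946). Il2ra and Gata2, which were not called in any comparison, were nearest to Nfam1 (0.933) and Ppt1 (0.929), and to Phc3 (0.949) and Plcxd2 (0.925). Within groups the r stayed high for Kit with Mmp11 (0.94), Spi1 with Cacnb3 (0.94), Cd44 with Sorl1 (0.93), Cpa3 with Bcl11a (0.88) and Hhex with Wbp1l (0.88), and was 0.70 for Cpa3 with Myo7a and 0.74 for Bcl11a with Pdia5.

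Other genes of the early progenitor program moved in both directions. In homozygous KO against wild type 13.2% of all features were called lower and 12.5% higher. Of 15 listed, 14 were tested, and 6 were called lower (Flt3, Cd93, Erg, Hoxa9, Gfi1b and Irf8) and 3 higher (Lmo2, Tal1 and Mycn) in homozygous KO relative to wild type, with a median log2 fold change of -0.30, also with Hoxa9 at its bound. Flt3, the cytokine receptor of multipotent progenitors, read 0.234, 0.196 and 0.477 CPM in homozygous KO against 3.34, 3.61, 4.32 and 3.64 CPM in wild type (log2 fold change -3.64, SE 0.30, adjusted p = 1.18e-05, edgeR). Hoxa9, a homeobox factor of stem and progenitor cells, had at most 1 read in any homozygous KO library, and was at least 10.9-fold lower there, taking 3 counts per library as the floor. Gfi1b, a repressor of erythroid and megakaryocytic progenitors, was at 12.5% of wild type (-2.94, SE 0.56, adjusted p = 0.00307). Tal1 was higher by 2.44 on the log2 scale (SE 0.76, adjusted p = 0.0367), but its libraries read 3.55, 1.39 and 0.266 CPM in homozygous KO and overlapped the wild types, and the call was lost in 10 of 20 alternatives. The count called higher fell from 3 to 1 in 7 of 20 alternatives, whereas that called lower stayed at 5 or 6.

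Genes of T-lineage commitment were not lower as a group. Of 14, 5 were called higher (Notch1, Notch3, Dtx1, Thy1 and Lck) and 0 lower by edgeR in homozygous KO against wild type, beside 12.5% of all features called higher. Their median log2 fold change was 0.11. Notch1, the receptor that drives commitment, stood at 208% of wild type (log2 fold change 1.06, SE 0.13, adjusted p = 1.43e-04) and its target Dtx1 at 303% (1.60, SE 0.33, adjusted p = 0.00494). The split rested in part on scaling: with library totals alone 4 of the 14 were called higher and 3 lower, and with the sets of animal numbers as a term 1 was called lower. With wild type 3 and 4 as the only controls 3 were called higher, and Dtx1 was not among them (adjusted p = 0.0586).

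Ligands and partners of the surface receptors gave 1 gene called higher and 2 lower among 8 tested, with a median log2 fold change of -0.27. Beside these stand 12.5% of all features called higher and 13.2% called lower. Il7r, the interleukin-7 receptor chain of double-negative thymocytes, stood at 25.6% of wild type (-1.97, SE 0.24, adjusted p = 1.54e-04, edgeR), and Il2rg, the chain that it shares with the interleukin-2 receptor, at 76.8% (-0.38, SE 0.08, adjusted p = 0.00392). Spp1, osteopontin, a ligand of Cd44, read 0.382, 7.03 and 4.24 CPM in homozygous KO and 0.0982, 0.0963, 0.326 and 0.206 CPM in wild type (4.29, SE 0.79, adjusted p = 0.00246), with homozygous KO replicate 1 close to the highest wild type. Kitl, the ligand of Kit, read 1.14 ± 0.431 and 1.26 ± 0.419 CPM (adjusted p = 0.786).

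Markers of other hematopoietic cells that use the same transcription factors were counted in the same comparison. Over all features 13.2% were called lower in it and 12.5% higher. B cell markers were called lower in 7 of 8 genes, and their summed level was 13.9 to 15.7 CPM in homozygous KO, 36.2 to 37.9 CPM in heterozygous KO and 41.6 to 62.4 CPM in wild type. Ms4a1 (CD20) had at most 1 read in a homozygous KO library and was at least 151-fold lower, and Pax5, the B cell identity factor, was at 1.87% of wild type (log2 fold change -5.54, SE 0.60, adjusted p = 7.58e-05, edgeR). Conventional dendritic cell markers were called lower in 6 of 7, with sums of 5.56 to 6.86 CPM in homozygous KO, 33.5 to 41.3 CPM in heterozygous KO and 30.2 to 44.4 CPM in wild type. Of 6 plasmacytoid dendritic cell markers 2 were called lower, Siglech (at least 74.9-fold, with at most 2 reads in a homozygous KO library) and Pacsin1 (10.5% of wild type), and the sums were 60.4 to 68.7 CPM in homozygous KO and 82.8 to 88.4 CPM in wild type. Tcf4, which was not called, made up most of these sums, with means of 53.1 CPM in homozygous KO and 51.6 CPM in wild type. Of 10 myeloid markers 4 were called lower, among them Csf1r (36.6% of wild type), and 2 higher, and the sums overlapped at 47.9 to 101 CPM and 70.2 to 83.9 CPM. The 2 higher calls, Cd14 and Csf3r, were both lost with wild type 3 and 4 as the only controls (adjusted p = 0.0528 and 0.0540), and Csf3r also with wild type 1 and 2 (0.0670). The part of these cell types in the levels of Bcl11a, Mef2c, Spi1, Hhex and Cd44 was not tested.

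**Figure D4:**
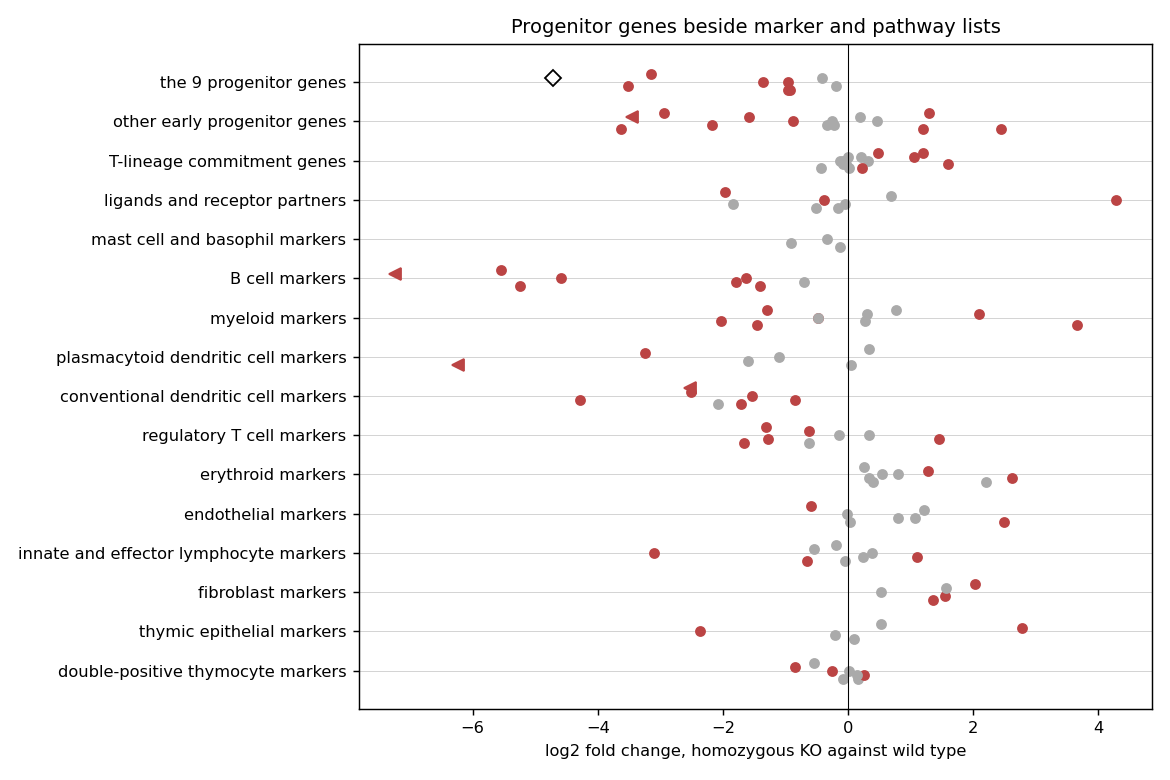
Homozygous KO relative to wild type on the log2 scale (horizontal axis) for each tested gene (points) of the 9 progenitor genes and of the marker and pathway lists (rows); red marks an adjusted p under 0.05, triangles a gene with at most 3 reads in every homozygous KO library drawn at its bound, and the open diamond Cpa3, which was not tested. B cell markers and conventional dendritic cell markers lie to the left of 0, as do the 9 progenitor genes, while T-lineage commitment genes lie on both sides.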

How the data were processed

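Total RNA from whole thymus was depleted of ribosomal RNA and sequenced as stranded libraries, per the labels. The authors deposited raw read counts per gene in 1 table of 35375 features, in which 34467 are Ensembl identifiers. The submitters' processing notes name CASAVA, STAR 2.4.1d, HTSeq 0.6.1p1 and the builds NCBIM37 and mm9, while the annotation release and the strand setting of the counting are not given in the sources used here. Symbols, exon lengths and coordinates are of GENCODE vM21 (GRCm38) and upstream windows of RefSeq (GRCm38.p6), which differ from the authors' build, and 30221 identifiers received a symbol. The remaining 908 features carry no Ensembl identifier and held 1.74% to 2.29% of counts.

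Counts were fitted with edgeR 4.0.16 in R 4.3.3 (TMM, filterByExpr, quasi-likelihood test) in 1 model over all 10 libraries, with Benjamini-Hochberg adjustment over 19511 features and calls at an adjusted p under 0.05. DESeq2 1.42.0 was an alternative. Log2 CPM used a prior count of 0.5, and an exact two-sided permutation over libraries was run on single genes. On simulated counts of 19308 features, homozygous KO against wild type recovered 55.7% of genes changed by 1 on the log2 scale and 93.9% of those changed by 3. For heterozygous KO against wild type these shares were 49% and 95%. Nothing but the animal number says that libraries are separate animals, so p-values measure the spread between these libraries. No pair of replicates within a group agreed within counting noise (chi-square per degree of freedom 12.6 to 108). Floors of 3 counts cover counting error only.

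The members and the gene lists were chosen with earlier results of these data known. Cpa3 was left untested in heterozygous KO against wild type too, since the wild types helped to choose it. All members are named. Of each list its counts are given with up to 4 called genes of largest change, or its most abundant genes where fewer than 2 were called, and Il1rl1, Kitl and the low mast cell markers were added after their values were seen. The alternatives were other normalizations, no filter, only the groups compared, the replicate number, the animal number set or Xist as a term, each pair of wild types, and each library left out.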

Additional observations from a re-analysis of the deposited data

Results flagged for a closer look

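Results were marked where every library of one set of animal numbers (44 to 51) moved one way between groups and every library of the other set (56 to 63) moved the opposite way. Arms held 1 to 3 libraries, and the differences between the sets were not tested. Il2ra was lower in homozygous KO than in wild type by -1.69 on the log2 CPM scale in 44 to 51 and higher by 0.77 in 56 to 63. Its heterozygous KO differences from wild type were -0.27 and 0.26. Kit in heterozygous KO against wild type was -0.22 in the lower-numbered and 0.046 in the higher-numbered animals, and Spi1 was -0.39 and 0.19. Gata2 in homozygous KO against heterozygous KO was -1.90 and 1.25, at counts between 7 and 40 per library. No member had a library far from its wild-type group by Dixon's ratio, the only group of 4.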

How the results depend on the processing

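The number of the 8 members called in homozygous KO against wild type was 4 to 6 over 20 alternatives (6 as reported), that against heterozygous KO 3 to 4 over 18 (4 as reported), and no alternative called any of these 8 in heterozygous KO against wild type. Over all features, homozygous KO against wild type gave 5030 calls, and 2670 with only the wild types whose titles carry 1 wt word; leaving out a library gave 3945 to 5152. Heterozygous KO against wild type gave 3 calls, 71 with DESeq2, 5 with the replicate block and 2 to 6 with a library left out. Homozygous against heterozygous KO gave 3342 calls and 2153 to 3370 with a library left out. Replicate numbers did not pair the libraries (same-number correlations of deviations -0.10 to 0.21), and the replicate block gave 4934, 5 and 3293 calls. Within a set of animal numbers these correlations ran from -0.14 to 0.21, all but the lowest positive. Between the sets they ran from -0.30 to 0.13 and most were negative. The animal number set as a term gave 5303, 3 and 4238 calls. With library totals alone the share of calls that were higher fell from 48.6% to 29.0% against wild type and from 44.6% to 26.9% against heterozygous KO. Signs turned only for values that were not called. Il2ra in homozygous KO against wild type ranged from -0.78 to 0.19 with a library left out. Il2ra in homozygous against heterozygous KO was 0.08 as reported, -0.0050 with library totals alone, -0.044 with the replicate block and -0.51 to 0.45 with a library left out. Gata2 reached 0.42 in homozygous KO and 0.057 in heterozygous KO against the wild types with 1 wt word, and -0.72 to 1.13 in homozygous against heterozygous KO with a library left out. Spi1 in heterozygous KO ranged from -0.26 to 0.010 and Hdc in homozygous KO from -0.38 to 0.13 with a library left out. The cause of these changes was not tested. The Gata2 estimates rest on 5 to 40 reads per library.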

Other observations

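The remaining marker lists were counted in homozygous KO against wild type. Over all features 25.8% were called in this comparison, 13.2% lower and 12.5% higher. Of 8 regulatory T cell markers, which share Il2ra with early thymocytes, 4 were called lower and 1 higher, with a median log2 fold change of -0.62. Foxp3, the factor that defines regulatory T cells, stood at 31.5% of wild type (log2 fold change -1.66, SE 0.25, adjusted p = 6.78e-04, edgeR), while Ctla4 was at 275% (1.46, SE 0.28, adjusted p = 0.00346). The summed level overlapped between groups (167 to 198 CPM in homozygous KO, 172 to 197 CPM in wild type). Ikzf2 made up most of that sum, with means of 120 CPM in homozygous KO and 133 CPM in wild type. Of 8 double-positive thymocyte markers 2 were called lower and 1 higher (median -0.03), and of 8 innate and effector lymphocyte markers 2 lower and 1 higher (median -0.12). Eomes, a T-box factor of the latter, was at 11.2% of wild type (-3.11, SE 0.46, adjusted p = 5.97e-04). Among the lower calls of these lists, Cd1d1 was lost in 10 of 20 alternatives and Nkg7 in 11 of 20. Erythroid markers were called higher in 2 of 8, Klf1 and Epor (median 0.67). With wild type 3 and 4 as the only controls Epor (adjusted p = 0.0504) and Ctla4 (0.0519) missed the threshold. Fibroblast markers were called higher in 3 of 5 (median 1.55), and without homozygous KO replicate 2 all 3 calls were lost (Lum adjusted p = 0.0842, Col3a1 0.103, Col1a1 0.195). Lum was lost in 9 of 19 alternatives, Col1a1 in 9 of 20 and Col3a1 in 5 of 20. Endothelial and thymic epithelial markers each held 1 gene called higher and 1 lower, among 7 and 5 tested, and the endothelial calls were lost in 7 (Tie1) and 8 (Egfl7) of 20 alternatives.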
